A study of Mus musculus with 20 samples.

Results

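Cd14 and the Toll-like receptor genes Tlr1, Tlr2, Tlr3, Tlr4, Tlr6, Tlr7, Tlr8, Tlr9 and Tlr13 were taken by symbol, which gave 10 of the 47069 genes in the count table. All 10 passed the filter on low counts that left 17622 genes for testing. RNA of whole kidney was sequenced from 20 male mice killed at 15 weeks of age, all with the strain label 129SJ x C57Bl/6J, an F1 cross of a 129 and a C57BL/6J parent. The 5 WT mice carried intact Col4a3 and were untreated. The other 15 were Col4a3-/-, which lack the α3 chain of collagen IV of the glomerular basement membrane and serve as a model of Alport syndrome, an inherited kidney disease with progressive fibrosis. From 5 weeks of age, 6 of them received PBS once a week under the skin (Veh), 6 received Lademirsen, an oligonucleotide complementary to microRNA-21, at 50 mg/kg in PBS on the same schedule (anti-miR-21), and 3 drank water with the angiotensin-converting enzyme inhibitor ramipril at 11 mg/L and, per the study's methods, were also injected weekly with PBS (ACEi). WT mice received no injection, so genotype and injection cannot be told apart in the comparison of Veh with WT.

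Toll-like receptors are membrane receptors of innate immunity that bind microbial products and, in injured tissue, molecules released by damaged cells or matrix. Tlr1, Tlr2, Tlr4 and Tlr6 act at the cell surface on lipoproteins and lipopolysaccharide, and Cd14 is the co-receptor that hands lipopolysaccharide to the Tlr4 complex. Tlr3, Tlr7, Tlr8, Tlr9 and Tlr13 sit in endosomes and bind nucleic acids. Most signal through Myd88, Tlr3 through Ticam1, to NF-κB and interferon regulatory factors, and in the kidney they are found on macrophages and dendritic cells and, for some members, on tubular cells.

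The sequences of Tlr1 and Tlr6 bear on how their counts can be read, because these neighbouring genes on chromosome 5 share long stretches (GRCm38, GENCODE M21, Tlr1 at chr5:64924679-64933563, minus strand, and Tlr6 at chr5:64952031-64960097, minus strand). The coding sequences were 74.8% identical when aligned, and in 100-base windows along the alignment identity was 97.0 to 100% between bases 1301 and 2200 of the Tlr1 coding sequence, against 45.0 to 83% elsewhere. The longest run without a difference was 229 coding bases, at chr5:64925537-64925765 in Tlr1 and chr5:64953828-64954056 in Tlr6. It is printed first because a read inside it, taken without its mate, fits either gene. Below it stands the stretch of 60 aligned coding bases with the fewest matches, in which capitals mark the 36 positions that differ and a read can be placed. All are given 5′ to 3′ on the minus strand, the coding strand of both genes.
Tlr1 and Tlr6, shared run: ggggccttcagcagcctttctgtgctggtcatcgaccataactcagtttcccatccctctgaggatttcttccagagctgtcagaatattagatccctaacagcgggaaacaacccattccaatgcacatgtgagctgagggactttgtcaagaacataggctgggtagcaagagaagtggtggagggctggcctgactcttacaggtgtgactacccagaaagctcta
Tlr1, chr5:64926477-64926536: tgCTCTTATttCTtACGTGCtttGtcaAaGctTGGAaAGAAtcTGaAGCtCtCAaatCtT
Tlr6, chr5:64954768-64954827: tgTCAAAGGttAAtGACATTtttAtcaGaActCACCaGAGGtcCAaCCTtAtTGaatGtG

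Of the 100-base windows of the transcripts, the length of a read, 259 occurred in both genes, 7.89% of the 3282 windows of Tlr1 and 7.09% of the 3652 of Tlr6. No other pair among the 45 pairs of members shared such a window. The reads were paired-end, and these windows do not take the mate of a read into account. The deposited estimated counts were fractional (more than 0.001 from a whole number) for Tlr1 and Tlr6 in 17 of 20 mice, whereas the sum of both was whole in all 20 and the counts of the other 8 members were whole in every mouse. Tlr1 took 54.9 to 88.2% of the sum in WT, where the sum was only 17 to 46 counts, and 72.4 to 82.7% in Veh. The split between these genes is therefore an estimate, and the fitted changes of their sum are given with those of both genes.

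**Figure D1:**
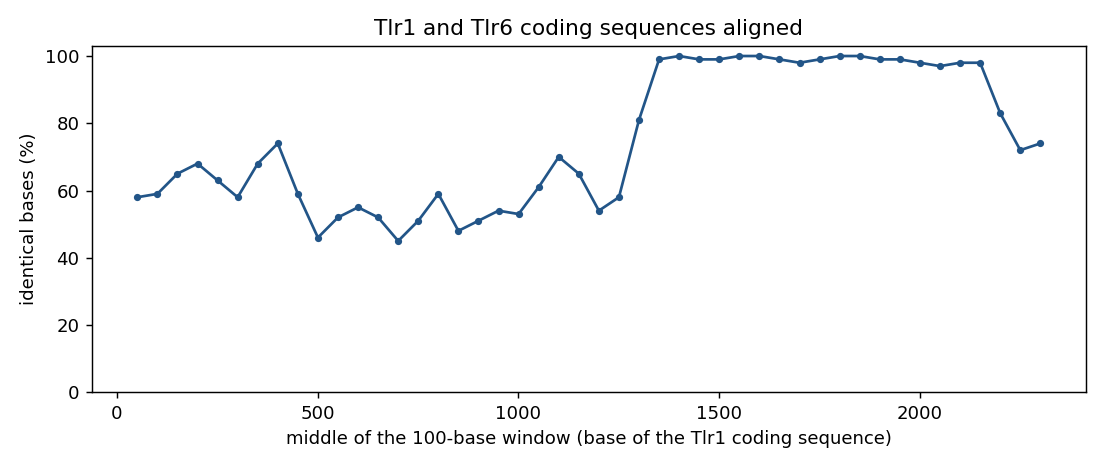
Percent of identical bases (vertical axis) between the aligned coding sequences of Tlr1 and Tlr6 in 100-base windows, plotted at the middle of each window along the Tlr1 coding sequence (horizontal axis, bases). Identity was 97.0 to 100% from base 1301 to base 2200 and at most 83% in the other windows.

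The 250 bases upstream of the annotated start were read for the members found in the RefSeq promoter table (GRCm38.p6), which held Tlr1, Tlr2, Tlr3, Tlr6, Tlr8, Tlr9 and Tlr13, with 2 starts each for Tlr1 and Tlr6, and not Tlr4, Tlr7 or Cd14. The core of the site of PU.1, a transcription factor of myeloid cells, GAGGAA on either strand, occurred upstream of Tlr1 (at 1 of its starts), Tlr8, Tlr9 and Tlr13, that is in 4 of 9 member windows against 23.3% of all 32851 windows of that length. The letters GGANTTTCC, the only form of an NF-κB site searched (1.1% of all windows), occurred only upstream of Tlr3. Other forms of that site were not searched. Letters for AP-1 (TGANTCA, 6.7%) occurred only upstream of Tlr9. Those for interferon regulatory factors (GAAANNGAA, 7.1%) occurred at Tlr6 and Tlr8, and those for C/EBP (TTGCNNAA, 9.6%) at Tlr3, Tlr6 and Tlr8. The Tlr6 matches lay upstream of 1 of its 2 starts, and the bases after either start occurred in no GENCODE transcript of Tlr6. A match of letters is not a shown binding site, and no motif tells anything here about the factor. The windows of the endosomal receptors Tlr9 and Tlr8, which end at the start of the gene in both annotations, are shown with the PU.1 letters, or their reverse complement, in capitals.
Tlr9, chr9:106222348-106222597, plus strand: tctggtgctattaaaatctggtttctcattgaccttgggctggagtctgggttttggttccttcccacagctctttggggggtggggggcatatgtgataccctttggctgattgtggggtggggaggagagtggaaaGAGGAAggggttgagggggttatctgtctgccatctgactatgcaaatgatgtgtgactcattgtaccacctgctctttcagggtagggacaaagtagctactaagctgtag
Tlr8, chrX:167264330-167264579, minus strand: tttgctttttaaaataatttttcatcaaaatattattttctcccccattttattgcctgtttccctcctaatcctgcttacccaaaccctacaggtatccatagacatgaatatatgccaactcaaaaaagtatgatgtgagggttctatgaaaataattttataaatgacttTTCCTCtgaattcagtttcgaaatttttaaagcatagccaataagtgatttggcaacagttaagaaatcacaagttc

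The oligonucleotide given to the anti-miR-21 mice is directed against the mature microRNA below (RefSeq, GRCm38.p6, chr11:86584120-86584141, minus strand), whose seed, bases 2 to 8, is in capitals.
mmu-miR-21a-5p: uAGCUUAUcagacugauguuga
The 7 letters that pair with this seed, ATAAGCT, occurred in the longest annotated 3′ untranslated region of 0 of the 10 members, whose lengths ranged from 58 bases (Tlr8) to 1496 (Tlr3), against 1585 of 21166 genes with such a region (7.5%).

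The libraries held 28474301 to 29479629 estimated counts on genes. Levels are CPM, counts scaled to a common library size with trimmed means of M values (TMM), and differences are log2 fold changes with their standard error (SE) from edgeR's quasi-likelihood test over all 20 mice, called at a Benjamini-Hochberg adjusted p under 0.05. Col4a3 reads were lower in all 15 Col4a3-/- mice (27.9 to 74.9 CPM) than in WT (194 to 238 CPM). The 5 proximal tubule markers summed to 14100 to 18059 CPM in WT and 1671 to 4336 in Veh, so that kidney transcripts were abundant in every library, although 1 protocol field of the labels speaks of adipose tissue. The 5 adipocyte markers summed to over 50 CPM in 4 mice, Veh mice A1 (90.1), A4 (120.3) and A9 (90.5) and anti-miR-21 mouse A12 (99.7), against at most 22.4 CPM in the other 16. The libraries ran on 2 flow cells, with 3 WT, 4 Veh, 5 anti-miR-21 and 1 ACEi library on the first (A). With flow cell as a term in the fit, the only change of a call among the members was the loss of Tlr8 in anti-miR-21 against Veh (adjusted p = 0.057).

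Compared per length, in the authors' FPKM (fragments per kilobase of transcript, scaled to depth), Cd14 stood at the top in Veh with a median of 78.1 FPKM, followed by Tlr2 with 21.2. Tlr1 (5.63) and Tlr3 (5.58) came next, then Tlr13 (2.76), Tlr4 (2.54), Tlr7 (2.08), Tlr9 (1.62), Tlr6 (1.06) and Tlr8 (0.473). The ranges of Cd14 (73.0 to 122), Tlr2 (17.6 to 29.5) and the next receptors did not overlap, while every neighbouring pair from Tlr1 downwards overlapped. In WT the order was Cd14 (3.75), Tlr3 (2.40) and Tlr2 (1.12), and the other 7 receptors had medians of at most 0.394. The double-stranded RNA receptor Tlr3 thus ranked above every other Toll-like receptor of the set in WT and below Tlr2 in Veh. The length behind the FPKM of Tlr7, Tlr8 and Tlr13 is not given in the annotation used here.

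All 10 members rose in Veh over WT, and in each of them the lowest Veh mouse lay above the highest WT mouse. Of all genes tested, 39.0% were called higher in Veh and 28.8% had Veh values all above WT. The members were chosen with earlier results of these data known, so their contrast with all genes is a description. The median log2 fold change of the members was 3.44, against 0.07 over all genes, and it ran from 0.71 for Tlr3 to 4.69 for Tlr8. The Tlr8 value rests on 6 counts in all WT mice together. With 0 to 5 counts in each WT mouse, Tlr8 passed the filter's minimum count of 10 through the other groups. In whole kidney, more cells that carry a receptor and more RNA per cell cannot be told apart. With scaling by library totals alone the median of all genes moved from 0.07 to 0.65 in this comparison, from -0.04 to -0.38 in anti-miR-21 against Veh and from -0.05 to -0.32 in ACEi against Veh, which is the direction of the members' own changes. With upper-quartile scaling it was 0.18, -0.12 and -0.12.

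**Figure D2:**
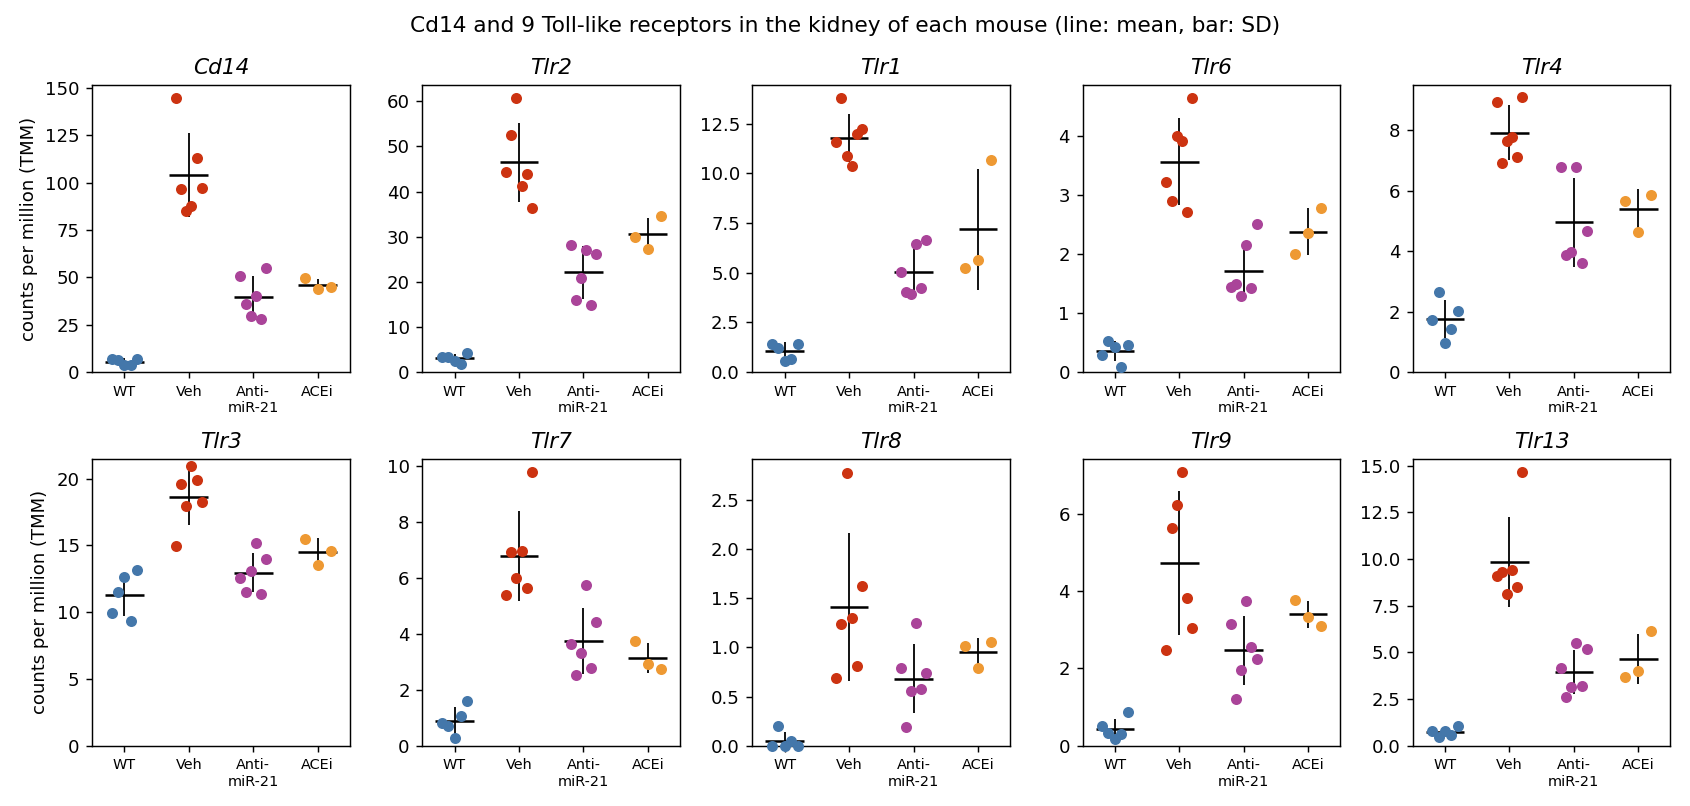
Level of each member in the kidney of each mouse (vertical axes, CPM after TMM scaling, each from 0) for WT, Veh, anti-miR-21 and ACEi, with 1 point a mouse, a horizontal line at the group mean and a bar of ± 1 SD. In all 10 panels the Veh points lie above the WT points, and the treated points mostly lie between them.

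Cd14 (chr18:36725067-36726798, minus strand) had the highest level and the largest absolute rise. It stood at 3.61, 3.77, 6.54, 6.64 and 7.01 CPM in the 5 WT mice, at 84.9 to 144 with a median of 96.8 in Veh, at 28.1 to 54.9 with a median of 37.98 in anti-miR-21 and at 43.7, 44.9 and 49.7 in ACEi. The log2 fold change was 4.23 ± 0.23 in Veh against WT (adjusted p = 4.31e-12), -1.38 ± 0.18 in anti-miR-21 against Veh (adjusted p = 1.98e-06) and -1.17 ± 0.23 in ACEi against Veh (adjusted p = 0.000468). Every treated mouse of both arms therefore lay below every Veh mouse and above every WT mouse. The ratio of Veh to WT was 18.8, and in the treated groups Cd14 was 2.60 times lower than Veh with anti-miR-21 and 2.25 times lower with ACEi. The partners of Cd14 in sensing lipopolysaccharide differed in size. Lbp, the plasma protein that loads lipopolysaccharide onto Cd14, rose by 3.64 ± 0.23 in Veh (adjusted p = 3.65e-11), at 4.19 to 7.93 CPM in WT and 43.5 to 112.2 in Veh. Ly96, the subunit that binds lipopolysaccharide together with Tlr4, rose by 0.96 ± 0.13 (adjusted p = 1.59e-06).

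Tlr4 (chr4:66827584-66930284, plus strand), the lipopolysaccharide receptor, rose less than Cd14. It stood at 0.965, 1.43, 1.73, 2.01 and 2.66 CPM in WT, at 6.91 to 9.10 with a median of 7.71 in Veh, at 3.61 to 6.801 with a median of 4.32 in anti-miR-21 and at 4.65, 5.67 and 5.86 in ACEi. All Veh mice lay above the other groups, and mice A2 and A10, the highest of anti-miR-21, came close to the lowest Veh mouse. The log2 fold change was 2.17 ± 0.22 in Veh against WT (adjusted p = 2.14e-08) and -0.67 ± 0.19 in anti-miR-21 against Veh (adjusted p = 0.00465). In ACEi against Veh it was -0.55 ± 0.24 and did not pass (adjusted p = 0.0685), although the 3 ACEi mice lay below all Veh mice. Without the 4 mice with adipocyte transcripts, an alternative chosen after seeing the data, anti-miR-21 against Veh gave -0.50 for Tlr4 and did not pass (adjusted p = 0.112).

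Tlr2 (chr3:83836272-83841767, minus strand) recognises lipoproteins as a dimer with Tlr1 or Tlr6 and had the highest level of the receptors in Veh. It stood at 1.87, 2.47, 3.23, 3.38 and 4.18 CPM in WT, at 36.3 to 60.7 with a median of 44.1 in Veh, at 14.8 to 28.2 with a median of 23.4 in anti-miR-21 and at 27.2, 29.9 and 34.5 in ACEi. The 4 groups were stepwise, with both treated groups wholly between WT and Veh and overlapping each other. Its log2 fold change was 3.93 ± 0.22 in Veh against WT (adjusted p = 6.93e-12), -1.07 ± 0.17 in anti-miR-21 against Veh (adjusted p = 2.06e-05) and -0.61 ± 0.21 in ACEi against Veh (adjusted p = 0.0267). The last call was lost when any of Veh mice A16 or A19 or ACEi mice A11 or A13 was left out, with adjusted p up to 0.126.

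The partners of Tlr2 rose with it. Tlr1 stood at 0.545, 0.668, 1.23, 1.44 and 1.44 CPM in WT, at 10.4 to 13.8 with a median of 11.8 in Veh, at 3.91 to 6.67 with a median of 4.63 in anti-miR-21 and at 5.21, 5.65 and 10.7 in ACEi, where mouse A23 was at the level of Veh and the other two below all Veh mice. Tlr6 was lower, at 0.0891 to 0.531 CPM in WT, 2.73 to 4.65 in Veh, 1.29 to 2.51 in anti-miR-21 and 2.001 to 2.79 in ACEi. In WT Tlr6 rested on 2 to 13.3 estimated counts a mouse. The log2 fold changes in Veh against WT were 3.46 ± 0.25 for Tlr1 and 3.30 ± 0.29 for Tlr6 (adjusted p = 2.3e-10 and 3.09e-09). In anti-miR-21 against Veh they were -1.22 ± 0.20 and -1.05 ± 0.23 (adjusted p = 3.68e-05 and 0.000615). In ACEi against Veh Tlr1 passed at -0.71 ± 0.25 (adjusted p = 0.029) and Tlr6 did not at -0.58 ± 0.28 (adjusted p = 0.109). The sum of both genes, which does not depend on how shared reads were split, gave 3.43 ± 0.23, -1.18 ± 0.19 and -0.68 ± 0.23 in the same comparisons (adjusted p = 8.16e-11, 2.02e-05 and 0.0234). Against WT the sum was 2.25 ± 0.23 in anti-miR-21 and 2.74 ± 0.25 in ACEi (adjusted p = 1.86e-07 and 3.74e-08). The Tlr1 call in ACEi was lost without the mice with adipocyte transcripts (-0.67, adjusted p = 0.121) and without any of Veh mice A4, A9 or A16 or ACEi mice A11 or A13, where the adjusted p reached 0.17.

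Among the endosomal receptors, Tlr3 (chr8:45395665-45411080, minus strand), which binds double-stranded RNA and signals through Ticam1 in place of Myd88, changed least. It stood at 9.35, 9.97, 11.5, 12.6 and 13.1 CPM in WT, at 15.0 to 20.9 with a median of 18.9 in Veh, at 11.4 to 15.1 with a median of 12.8 in anti-miR-21 and at 13.5, 14.6 and 15.5 in ACEi. Anti-miR-21 values reached down into the WT range, and its highest mouse (A2) just passed the lowest Veh mouse (A1). In log2 terms the difference was 0.71 ± 0.10 in Veh against WT (adjusted p = 2.89e-06), -0.52 ± 0.10 in anti-miR-21 against Veh (adjusted p = 0.000112) and -0.36 ± 0.12 in ACEi against Veh (adjusted p = 0.0226). Tlr3 was the only member not called in anti-miR-21 against WT (0.19 ± 0.10, adjusted p = 0.137), though it was called there with library totals alone (0.44, adjusted p = 0.00786) and by limma on FPKM (0.32 on the log2(FPKM + 1) scale, adjusted p = 0.0144). Its call in ACEi against Veh was lost without Veh mouse A4, A16 or A20 or without ACEi mouse A13 or A23. Exons of Tlr3 overlap those of Gm45542 on the other strand, and whether the counting used strand is not given in the sources used here.

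Tlr7 (chrX:167304929-167330558, minus strand), a receptor for single-stranded RNA, stood at 0.294, 0.695, 0.802, 1.07 and 1.60 CPM in WT, at 5.39 to 9.77 with a median of 6.45 in Veh, at 2.51 to 5.72 with a median of 3.47 in anti-miR-21 and at 2.73, 2.93 and 3.74 in ACEi. Veh mouse A9 was the highest by far, and the ACEi mice lay below all Veh mice. Its log2 fold change was 2.92 ± 0.30 in Veh against WT (adjusted p = 2.66e-08), -0.86 ± 0.25 in anti-miR-21 against Veh (adjusted p = 0.00551) and -1.11 ± 0.32 in ACEi against Veh (adjusted p = 0.00875). Tlr7 was the only member with a larger fitted fall in ACEi than in anti-miR-21, a difference that did not pass (0.25 ± 0.31, adjusted p = 0.74). Without the mice with adipocyte transcripts, anti-miR-21 against Veh gave -0.71 and did not pass (adjusted p = 0.0631).

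Tlr13 (chrX:106143204-106160493, plus strand), a receptor for bacterial ribosomal RNA in mice that humans lack, rose further. It stood at 0.450, 0.579, 0.797, 0.802 and 1.07 CPM in WT, at 8.11 to 14.7 with a median of 9.22 in Veh, at 2.62 to 5.52 with a median of 3.70 in anti-miR-21 and at 3.71, 4.01 and 6.17 in ACEi. Both treated groups lay wholly between WT and Veh. The fitted log2 fold change was 3.73 ± 0.26 in Veh against WT (adjusted p = 1.29e-10), -1.31 ± 0.20 in anti-miR-21 against Veh (adjusted p = 1.81e-05) and -1.09 ± 0.26 in ACEi against Veh (adjusted p = 0.0024).

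Tlr9 (chr9:106222598-106226883, plus strand), the receptor for unmethylated DNA, and Tlr8 (chrX:167242696-167264329, minus strand), related to Tlr7, were the least precise members. Tlr9 stood at 0.168, 0.312, 0.327, 0.507 and 0.861 CPM in WT, at 2.49 to 7.08 with a median of 4.73 in Veh, at 1.199 to 3.74 with a median of 2.40 in anti-miR-21 and at 3.10, 3.33 and 3.77 in ACEi. Within Veh, A1, A9 and A4 were the lowest, at 2.49, 3.05 and 3.82 CPM, against 5.65 or more in the other 3, and within anti-miR-21 the lowest was A12, so the 4 mice with adipocyte transcripts were the lowest of their groups, and the part of this in the result was not tested. The log2 fold change of Tlr9 was 3.42 ± 0.38 in Veh against WT (adjusted p = 7.84e-08), -0.93 ± 0.30 in anti-miR-21 against Veh (adjusted p = 0.0109) and -0.47 ± 0.36 in ACEi against Veh, which did not pass (adjusted p = 0.318). Without those 4 mice it was -1.19 in anti-miR-21 (adjusted p = 0.0025) and -0.87 in ACEi (adjusted p = 0.0528), and on the first flow cell alone it was -0.73 in anti-miR-21, which did not pass (adjusted p = 0.0816). Tlr8 was at 0 in 3 WT mice and held 6 counts in all WT mice together. It stood at 0.691 to 2.78 CPM in Veh, 0.187 to 1.25 in anti-miR-21 and 0.787 to 1.06 in ACEi. Its fitted log2 fold change of 4.69 ± 0.67 in Veh against WT (adjusted p = 2.55e-06) rests on those few WT counts. In anti-miR-21 against Veh Tlr8 passed narrowly at -1.03 ± 0.44 (adjusted p = 0.0484) and lost the call in 13 of the alternatives, among them leaving out any of 9 single mice, with adjusted p up to 0.182. In ACEi against Veh it gave -0.56 ± 0.53 and did not pass (adjusted p = 0.427).

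Anti-miR-21 thus lowered 10 of 10 members against Veh, where 30.5% of all genes were called lower, and 6 of 10 had anti-miR-21 values all below Veh, against 17.9% of all genes. The median log2 fold change was -1.04 for the members and -0.04 for all genes. ACEi, with 3 mice, lowered 6 of 10, Cd14, Tlr1, Tlr2, Tlr3, Tlr7 and Tlr13, where 19.1% of all genes were called lower, and 5 of 10, Cd14, Tlr2, Tlr4, Tlr7 and Tlr13, had ACEi values all below Veh, against 18.8% of all genes. All 10 members had a negative log2 fold change in ACEi, with a median of -0.59 against -0.05 for all genes. The anti-miR-21 and ACEi comparisons share the Veh mice. Set directly against each other, anti-miR-21 and ACEi differed in 0 of 10 members by edgeR's quasi-likelihood test, where 0.584% of all genes were called. The smallest adjusted p was 0.3, for Tlr2 at -0.46 ± 0.20, and 9 of 10 members had a negative value. The approximate 95% interval of the difference ran from -0.86 to -0.06 for Tlr2, from -0.63 to 0.21 for Cd14 and from -1.52 to 0.58 for Tlr8, so that 0 calls do not show equal action.

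**Figure D3:**
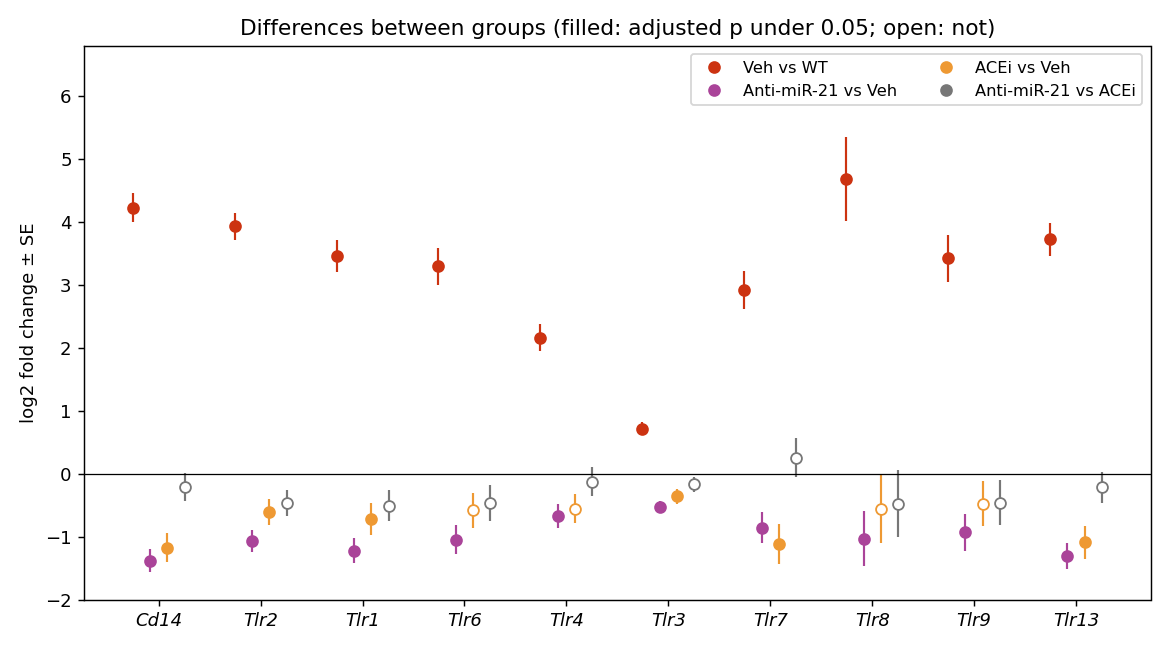
Log2 fold change of each member with ± 1 SE (vertical axis) for Veh against WT, anti-miR-21 against Veh, ACEi against Veh and anti-miR-21 against ACEi. Filled points passed an adjusted p under 0.05 and open points did not. All Veh points lie above 0, all points of either treatment against Veh lie below 0, and all points of anti-miR-21 against ACEi are open.

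Of these 10 members, 1 had an unadjusted p under 0.05 in the direct comparison, and DESeq2 called 0. The sum of Tlr1 and Tlr6 also had an unadjusted p under 0.05 there and did not pass after adjustment (-0.50 ± 0.22, adjusted p = 0.315). Compared with WT, the treated mice still had higher levels. In anti-miR-21 against WT 9 of 10 members were called higher, where 23.9% of all genes were, and in ACEi against WT 10 of 10, where 25.2% of all genes were. The remaining log2 difference was 2.85 ± 0.22 for Cd14, 2.87 ± 0.21 for Tlr2 and 1.49 ± 0.22 for Tlr4 in anti-miR-21, and 3.06 ± 0.24, 3.33 ± 0.23 and 1.61 ± 0.25 in ACEi. As a description, each treated mouse was placed on a log2 CPM scale (prior count 2) on which the Veh mean is 0% and the WT mean 100%. Anti-miR-21 mice had covered 32.9 ± 9.26% (SD, n = 6) for Cd14, 27.7 ± 10.3% for Tlr2 and 32.4 ± 18.5% for Tlr4. Tlr3 was farthest along, with 72.5 ± 22.3% in anti-miR-21 and 48.7 ± 13.8% (SD, n = 3) in ACEi, where the groups Veh and WT themselves lay closest together. In ACEi the means of the other members ran from 10.7% for Tlr8 to 36.3% for Tlr7. Of the anti-miR-21 mice, either A12 or A22 lay nearest to WT for 8 of the 10 members, and A15 for Tlr1 and Tlr6. The mouse nearest to Veh was A2, A8 or A10 for all 10.

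**Figure D4:**
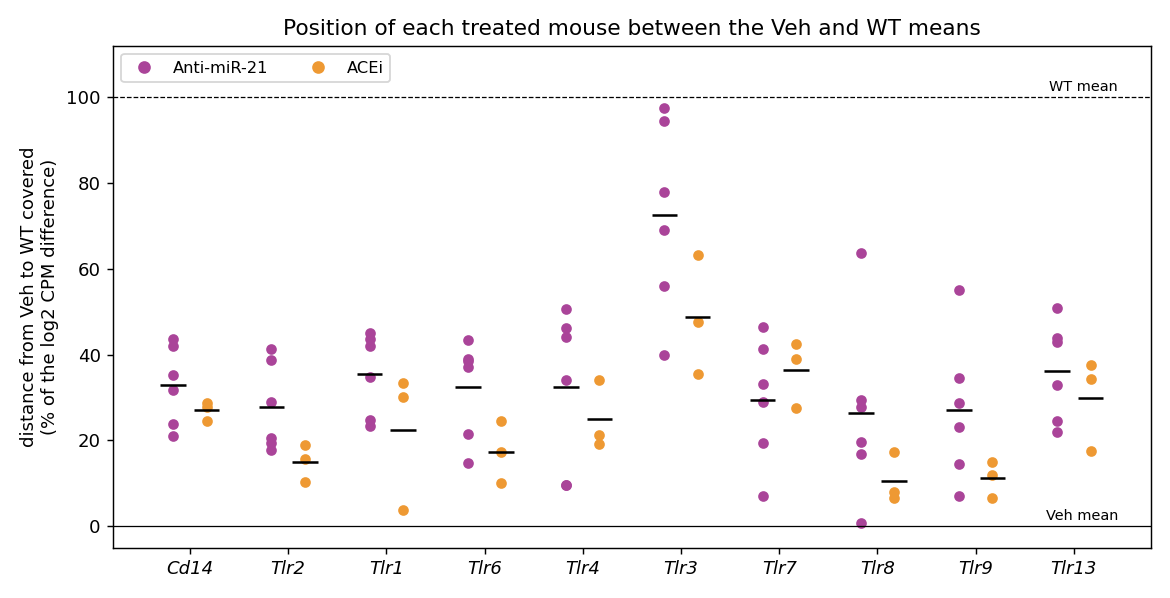
Position of each treated mouse on a log2 CPM scale, set for each member so that the mean of Veh is 0% and that of WT 100% (vertical axis, %), with 1 point a mouse and a line at the group mean. Every treated mouse lies between both means, at 97.6% at most, and Tlr3 has the highest group means, 72.5% in anti-miR-21 and 48.7% in ACEi.

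The macrophage markers Adgre1, Csf1r, Cd68, C1qa, C1qb and Mrc1 moved with the members. Of these markers 6 of 6 were called higher in Veh than in WT, where 39.0% of all genes were. In anti-miR-21 and in ACEi 6 of 6 were called lower than in Veh, where 30.5% and 19.1% of all genes were. The markers summed to 139.6 to 154 CPM in WT, 817 to 998 in Veh, 341 to 518 in anti-miR-21 and 449.5 to 532 in ACEi. Set against this sum, Cd14 was 2.59 to 4.73% in WT, 9.38 to 15.1% in Veh, 8.25 to 11.2% in anti-miR-21 and 8.43 to 10.8% in ACEi, and Tlr1, Tlr2, Tlr13 and Cd14 had Veh ratios all above WT. Tlr3 had Veh ratios all below WT with the same sum, at 6.63 to 9.33% in WT and 1.56 to 2.56% in Veh, and its anti-miR-21 ratios, 2.70 to 3.82%, were all above Veh. Csf1r, the receptor for colony stimulating factor 1, made up most of the WT sum, at 100.7 to 118 CPM, and rose by only 1.02 ± 0.08. With Csf1r left out, an alternative chosen after seeing the data, no member had Veh ratios all above WT, Cd14 stood at 11.98 to 20.3% in WT and 12.7 to 19.1% in Veh, and Tlr3 (26.2 to 48.8% and 1.98 to 3.62%) and Tlr4 (3.73 to 6.03% and 1.11 to 1.35%) had Veh ratios all below WT. In ACEi against Veh, Tlr3 and Tlr4 had ratios all above Veh with either sum. The part of the macrophage transcripts in the members' changes was not tested.

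Markers of other cell types also moved, though not all in the direction of the members. The 4 dendritic cell markers summed to 6.00 to 15.4 CPM in WT and 65.2 to 87.0 in Veh, with 4 of 4 called higher, and the 4 monocyte markers to 10.6 to 17.1 and 111 to 143 CPM, with 3 of 3 tested called higher. The 5 B cell markers summed to 1.27 to 3.42 and 5.12 to 7.22 CPM, and the 3 markers of plasmacytoid dendritic cells, which carry Tlr7 and Tlr9, to 1.76 to 2.38 and 3.58 to 5.45 CPM. The 5 neutrophil markers summed to 0.0839 to 1.27 CPM in WT and 1.32 to 3.48 in Veh, with 3 of 3 tested called higher, and the defining markers Ly6g and Camp were too low to be tested. The 5 T cell markers summed to 3.79 to 7.28 CPM in WT and 12.9 to 40.3 in Veh, and the 5 fibroblast markers to 111 to 258 and 1504 to 1812 CPM. Proximal tubule markers went the other way, with 5 of 5 lower in Veh than in WT, as did 3 of 4 distal nephron markers. The 5 endothelial markers summed to 86.4 to 244 CPM in WT and 199 to 253 in Veh, with 2 called higher and 1 lower. Of the podocyte markers 3 of 4 were higher. Under treatment the immune cell and fibroblast lists did not all move with the members. Of all genes tested, 30.5% were called lower than Veh in anti-miR-21 and 19.1% in ACEi. In anti-miR-21 against Veh, 2 of 4 dendritic cell, 2 of 3 monocyte, 1 of 4 B cell, 3 of 3 plasmacytoid, 1 of 3 neutrophil, 3 of 5 T cell and 4 of 5 fibroblast markers tested were called lower, and 5 of 5 proximal tubule markers higher. In ACEi against Veh the counts in that order were 1 of 4, 2 of 3, 0 of 4, 0 of 3, 1 of 3, 0 of 5 and 2 of 5 lower, and 5 of 5 proximal tubule markers higher. In both treatments 0 of 5 endothelial markers were called lower and 1 of 5 higher. Of the distal nephron and the podocyte markers, 3 of 4 each were higher in anti-miR-21 and 2 of 4 each in ACEi. None of these parts in the members' changes was tested.

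The remaining Toll-like receptors of the mouse did not all follow. Tlr12, an endosomal receptor for profilin, stood at 28.9 to 43.9 CPM in WT and 10.9 to 17.5 in Veh, with no overlap, and fell by 1.32 ± 0.12 on the log2 scale (adjusted p = 6.57e-09). It was higher than Veh in anti-miR-21, at 27.3 to 37.2 CPM (1.26 ± 0.12, adjusted p = 7.25e-08), and in ACEi, at 20.6 to 24.1 CPM (0.66 ± 0.14, adjusted p = 0.00106). The flagellin receptor Tlr5 was low, at 0.0891 to 0.328 CPM in WT and 0.415 to 0.815 in Veh, and rose by 1.55 ± 0.40 (adjusted p = 0.00151). It was lower than Veh in anti-miR-21 (-1.30 ± 0.36, adjusted p = 0.00381) and in ACEi (-1.62 ± 0.47, adjusted p = 0.00958). Tlr11, the other profilin receptor, rose by 2.07 ± 0.39 in Veh (adjusted p = 7.73e-05) and passed in neither treatment.

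The lists of pathway genes that follow are read against all genes tested, of which 39.0% were higher and 34% lower in Veh against WT, 30.5% lower and 28.8% higher in anti-miR-21 against Veh, and 19.1% lower and 21% higher in ACEi against Veh. These lists, too, were chosen with earlier results of these data known, and the contrast is a description. Among 8 genes that serve the receptors as co-receptors, chaperones or traffic factors, 4 were higher and 1 lower in Veh against WT, at a median log2 fold change of 0.13. Unc93b1, which carries the endosomal receptors from the endoplasmic reticulum, rose by 2.74 ± 0.12 (adjusted p = 5.74e-13), with 18.4 to 26.8 CPM in WT and 138 to 161 in Veh, and was lower in anti-miR-21 (-0.94 ± 0.10, adjusted p = 3.11e-07) and ACEi (-0.62 ± 0.13, adjusted p = 0.000918). Lbp fell by 1.92 ± 0.19 in anti-miR-21 and by 1.43 ± 0.24 in ACEi against Veh (adjusted p = 1.18e-07 and 0.000135). Cd36, a co-receptor of Tlr2 that is also the fatty acid transporter of tubular cells, moved the other way, with 747 to 1048 CPM in WT and 60.2 to 187 in Veh (-3.12 ± 0.24, adjusted p = 3.71e-10), and it was higher than Veh by 1.998 ± 0.22 in anti-miR-21 and 2.01 ± 0.25 in ACEi (adjusted p = 3.46e-07 and 1.6e-05). The chaperones Cnpy3 (0.04 ± 0.05) and Hsp90b1 (-0.18 ± 0.15) did not pass in Veh against WT (adjusted p = 0.468 and 0.289), nor did Lgmn.

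Of the 18 adaptors and kinases downstream, 7 were higher and 7 lower in Veh against WT, shares near those over all genes, at a median log2 fold change of -0.05. The largest changes were in Ticam2, the adaptor between Tlr4 and Ticam1, with 4.27 ± 0.51 (adjusted p = 2.49e-07) at 0 to 0.286 CPM in WT and 1.55 to 3.55 in Veh, and in Ikbke, a kinase of the interferon branch, with 2.14 ± 0.15 (adjusted p = 1.55e-10). Ticam2 counts were fractional. Both were lower in anti-miR-21 than in Veh (-1.13 ± 0.36 and -1.04 ± 0.13, adjusted p = 0.0114 and 1.86e-06). In ACEi Ikbke was lower (-0.70 ± 0.17, adjusted p = 0.00262), and Ticam2 did not pass (-0.14 ± 0.43, adjusted p = 0.818). Chuk, a kinase of the inhibitor of NF-κB, fell in Veh against WT (-1.53 ± 0.09, adjusted p = 2.67e-11) and was higher than Veh in both anti-miR-21 (1.04 ± 0.09, adjusted p = 4.37e-08) and ACEi (1.01 ± 0.11, adjusted p = 1.04e-05). Of 9 transcription factors, 8 were higher and 1 lower in Veh, with a median of 2.04. The NF-κB subunits Relb and Rel led with 3.09 ± 0.14 and 2.48 ± 0.28 (adjusted p = 6.1e-13 and 8.86e-08), and Irf3 was the one that fell (-0.19 ± 0.08, adjusted p = 0.03). Anti-miR-21 lowered 8 of the 9 against Veh, with -0.999 ± 0.11 for Relb and -0.94 ± 0.24 for Rel (adjusted p = 4.1e-07 and 0.00198), and ACEi lowered 5, with -0.59 ± 0.14 for Relb and -0.49 ± 0.13 for Nfkb2 (adjusted p = 0.00234 and 0.00478). Nfkb2 gave -0.80 ± 0.10 in anti-miR-21 (adjusted p = 1.9e-06), and Rel gave -0.54 ± 0.29 in ACEi (adjusted p = 0.151).

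Of 10 inhibitors of the pathway, 7 were higher and 2 lower in Veh against WT, at a median log2 fold change of 1.77. Ly86 and Cd180, which form a complex related to Tlr4, rose by 4.07 ± 0.16 and 3.04 ± 0.35 (adjusted p = 4.95e-13 and 1.47e-07). Anti-miR-21 lowered 6 and raised 2 of them, led by Ly86 (-1.24 ± 0.12, adjusted p = 9.49e-08) and the cytokine signalling inhibitor Socs1 (-1.12 ± 0.22, adjusted p = 0.00022). ACEi lowered 3 and raised 2, led by Irak3, the kinase homologue that holds back Myd88 signals in macrophages (-0.94 ± 0.23, adjusted p = 0.00309), and Ly86 (-0.71 ± 0.15, adjusted p = 0.0009). Irak3 gave -0.81 ± 0.18 in anti-miR-21 (adjusted p = 0.000749), and Socs1 gave -0.44 ± 0.27 in ACEi (adjusted p = 0.201). Cd180 gave -0.49 ± 0.28 in anti-miR-21 and -0.31 ± 0.35 in ACEi (adjusted p = 0.143 and 0.499).

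Of 12 genes known as targets of these receptors, 11 were tested, and 11 of 11 rose in Veh over WT, by a median of 4.73 on the log2 scale, or 4.57 with Il6 and Il12b, which had at most 3 counts in every WT mouse, set to a floor of 3 counts a library. Ifnb1 was too low to be tested. Ccl2, the chemokine that draws monocytes, stood at 0.0845 to 0.419 CPM in WT and 25.2 to 57.9 in Veh (7.14 ± 0.40, adjusted p = 8.98e-12). The cytokine gene Il6 had 0 to 1 counts a mouse in WT and 17 to 59 in Veh (adjusted p = 1.61e-06). Under treatment 5 of 11 were lower than Veh in anti-miR-21 and 2 of 11 in ACEi, with no gene higher, against 30.5% and 19.1% of all genes called lower. Il1b, which encodes interleukin 1β, fell by 1.52 ± 0.27 in anti-miR-21 and by 0.95 ± 0.33 in ACEi (adjusted p = 6.83e-05 and 0.0279). Il6 was lower in anti-miR-21 (-1.57 ± 0.48, adjusted p = 0.00794) and gave -0.45 ± 0.56 in ACEi (adjusted p = 0.547). The inflammatory cytokine gene Tnf was lower in both anti-miR-21 (-1.13 ± 0.27, adjusted p = 0.00131) and ACEi (-0.89 ± 0.34, adjusted p = 0.042). Ccl2 stood at 17.8 to 46.7 CPM in anti-miR-21 and 31.5 to 37.7 in ACEi and did not pass in either (-0.41 ± 0.23 and -0.13 ± 0.28, adjusted p = 0.121 and 0.746).

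Of 9 genes whose products are known as endogenous ligands of these receptors, 4 were higher and 2 lower in Veh against WT, at a median log2 fold change of 0.71. The matrix proteins Tnc (tenascin C) and Fn1 (fibronectin) rose by 4.77 ± 0.37 and 3.98 ± 0.26 (adjusted p = 4.12e-10 and 5.82e-11). Tnc stood at 2.41 to 12.8 CPM in WT, 155 to 272 in Veh, 20.2 to 52.9 in anti-miR-21 and 48.8 to 70.8 in ACEi. In anti-miR-21 Tnc and the proteoglycan gene Vcan fell by 2.42 ± 0.30 and 1.54 ± 0.47 on the log2 scale (adjusted p = 1.05e-06 and 0.00857). In ACEi Tnc was lower (-1.65 ± 0.37, adjusted p = 0.00168), and Vcan did not pass (-1.39 ± 0.60, adjusted p = 0.0725). Hspd1, a mitochondrial chaperone, fell in Veh against WT (-1.84 ± 0.14, adjusted p = 4.45e-10) and was higher than Veh in both anti-miR-21 (1.34 ± 0.14, adjusted p = 1.35e-07) and ACEi (1.19 ± 0.16, adjusted p = 1.99e-05). Fn1 gave -1.52 ± 0.22 in anti-miR-21 and -0.90 ± 0.27 in ACEi (adjusted p = 6.4e-06 and 0.0126). The neutrophil and monocyte alarmins S100a8 and S100a9 did not pass in any of these comparisons.

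**Figure D5:**
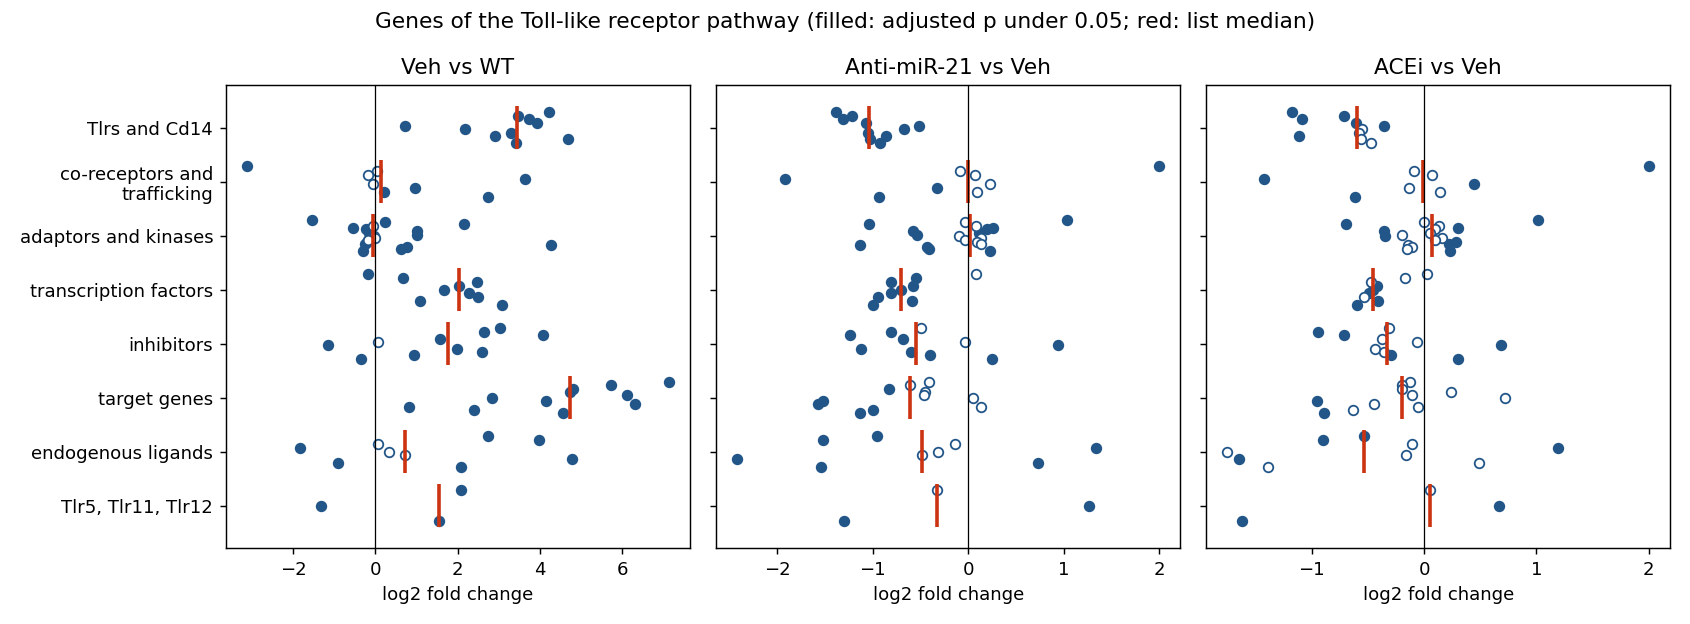
Log2 fold changes (horizontal axes, a separate range for each panel) of the members and of 7 lists of pathway genes (rows) in Veh against WT, anti-miR-21 against Veh and ACEi against Veh, with 1 point a gene, filled where the adjusted p was under 0.05, and a red line at the list's median. In Veh against WT the median is 3.44 for the members and 4.73 for the target genes, while adaptors and kinases spread on both sides of 0 with a median of -0.05.

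The genes with the pattern most like each member were sought over 20 mice among 12562 protein-coding genes with a mean of at least 1 on the log2 CPM scale, by Pearson's r of log2 CPM, and the r of deviations from the group means is given second. The values share libraries and the differences between groups, and stand as a description. For Cd14 they were Slfn2 (r = 0.99, 0.85 within groups), Relb (0.99, 0.90) and Tmsb10 (0.99, 0.86). For Tlr2 they were Adgre1 (r = 0.99, 0.87 within groups), Itgb2 (0.99, 0.85) and Nrros (0.99, 0.84), of which Adgre1 encodes the macrophage marker F4/80. For Tlr4 they were Adamtsl4 (r = 0.99, 0.89 within groups), Ppp1r18 (0.98, 0.89) and Samd4 (0.98, 0.88). For Tlr1 they were Bgn (r = 0.99, 0.87 within groups), Vsir (0.99, 0.84) and Epsti1 (0.99, 0.88), and for Tlr6 Adgrg2 (r = 0.98, 0.84 within groups), Bcl2a1b (0.98, 0.88) and Dpep2 (0.98, 0.81). For Tlr3, which had the lowest leading r, they were St3gal4 (r = 0.95, 0.82 within groups), Fut11 (0.94, 0.75) and Acsl5 (0.94, 0.74). For Tlr7 they were Dkk3 (r = 0.99, 0.91 within groups), Irak3 (0.97, 0.76) and Xdh (0.97, 0.81). For Tlr8 they were Rasal3 (r = 0.97, 0.79 within groups), Syk (0.95, 0.69) and Map3k8 (0.95, 0.69), and for Tlr9 Pip4k2a (r = 0.98, 0.83 within groups), Fli1 (0.97, 0.83) and Axl (0.97, 0.81). For Tlr13 they were Igsf6 (r = 0.99, 0.83 within groups), Ctsc (0.98, 0.84) and Cx3cr1 (0.98, 0.77), of which Cx3cr1 is a chemokine receptor of resident macrophages.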

How the data were processed

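RNA-seq of whole-kidney total RNA (HiSeq 2000, 100-base paired-end reads) was analysed from 20 mice. The authors used the OmicSoft aligner and GRCm38 and deposited estimated counts (expected counts) for each gene and library, without normalization, and FPKM, which the authors normalized for length and library total. Library names in the tables were matched to mice by the labels, and 3 FPKM columns of other libraries were not used. Counts were rounded, filtered with filterByExpr (minimum count 10, minimum total 15), TMM-scaled and fitted with edgeR 4.0.16 (R 4.3.3, quasi-likelihood test) over all 4 groups, with adjustment over all genes tested. The SE is the log2 fold change over the root of the test's F. FPKM ordered members by level and served the limma alternative. DESeq2 1.42.0, limma 3.58.1 on log2(FPKM + 1), other scalings and filters, flow cell as a term, flow cell A alone, fits of just 2 groups and the removal of single mice were alternatives. The test was checked on simulated counts. Members and lists were chosen with earlier results of these data known. All members, all other Toll-like receptors and the 2 pathway genes of each list with the largest called change in each of Veh against WT and the treatments against Veh were named. Ly96, Unc93b1, Cnpy3, Hsp90b1, Lgmn, Irf3, S100a8 and S100a9 were added after their values were seen. Lists were described by counts and medians. Every library is 1 mouse. Plots used Python 3.11.15 and matplotlib 3.10.9. Total counts ran from 28474301 to 29479629 a library.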

Additional observations from a re-analysis of the deposited data

Results flagged for a closer look

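Of 30 groups of members tested for a single mouse far from the rest (Dixon's criterion, which chance alone meets in about 1 of 20 groups), 3 met it. Veh mouse A9 had 14.7 CPM of Tlr13, with the next Veh mouse at 9.39 and the lowest at 8.11. The same mouse had 9.77 CPM of Tlr7, with the next at 6.97 and the lowest at 5.39. WT mouse A17 had 0.204 CPM of Tlr8, with the next at 0.0445 and the lowest at 0. A9 is also among the 4 mice with adipocyte transcripts. Without A9, the log2 fold change of Tlr13 was 3.58 in Veh against WT and -1.14 in anti-miR-21 against Veh, and that of Tlr7 was 2.79 and -0.70, all still past an adjusted p of 0.05 in edgeR's test. A17 held 5 of the 6 counts of Tlr8 in WT.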

How the results depend on the processing

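Of 1152 log2 fold changes of single members under 31 alternatives in 6 comparisons, 1105 kept their direction and their side of the threshold, 35 lost and 11 gained a call, and 1 changed sign, Tlr13 in anti-miR-21 against ACEi, which ran from -0.35 to 0.048 with single mice left out and was positive only without ACEi mouse A23. None in Veh against WT changed. With at least 10 counts required in every mouse, only 6 members were tested, and 6 were called in Veh against WT, 6 in anti-miR-21 against Veh, 5 in anti-miR-21 against WT and 6 in ACEi against WT. Leaving out 1 mouse at a time gave 10 to 10 members called in Veh against WT, 9 to 10 in anti-miR-21 against Veh, 3 to 6 in ACEi against Veh, 0 to 0 in anti-miR-21 against ACEi, 9 to 9 in anti-miR-21 against WT and 9 to 10 in ACEi against WT. The lowest count in ACEi against Veh, 3, arose without Veh mouse A16 and without ACEi mouse A13. DESeq2, limma, library totals and the fit of only the 2 groups called Tlr4 and Tlr6 there in addition. Tlr8 in anti-miR-21 against Veh lost its call without a filter, with flow cell as a term, on flow cell A alone, without the mice with adipocyte transcripts and without any of 9 single mice. Leaving out those 4 mice, summing Tlr1 and Tlr6 and leaving out Csf1r were chosen after seeing the data. Without Csf1r, 0 in place of 4 members had marker ratios above WT in Veh, 2 in place of 1 below, and 0 in place of 1 above Veh in anti-miR-21. Causes were not tested, apart from the fewer genes or mice that an alternative uses. ACEi has 1 library on flow cell A, so no fit within it was made. No paired analysis was possible because mouse names are unique to each mouse.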

Other observations

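Pairs of members were also compared after the group means were taken out. Of 45 pairs, 44 had a positive r of their deviations over the 20 mice, from -0.015 to 0.68 (median 0.41). These values share libraries and scaling and are given as a description. The same was not computed for pairs of all genes, so they do not show a trait particular to the members.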
